A study of Mus musculus with 15 samples.

Results

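The regions described here are 214 stretches of promoter chromatin that carried acetylation of histone H3 at lysine 27 (H3K27ac) in both wild-type (WT) macrophage libraries and in neither library from H3.3-deficient macrophages. They were chosen by the H3K27ac calls themselves. The region lists of 4 H3K27ac libraries were merged on chromosomes 1 to 19 and X, and a merged region was a member if both WT lists and neither conditional knockout (cKO) list overlapped it by at least 1 bp and its midpoint lay from 1000 bp upstream to 100 bp downstream of the transcription start site (TSS) of a protein-coding gene. The 214 members came from 89773 merged regions, 3879 of which lay at promoters, and belonged to 212 genes on 20 chromosomes. Among the 1923 promoter regions called in both WT libraries, the members made up 11.1%. A further 298 were called in 1 cKO library and 1411 were kept in all 4 libraries. Of all 35166 merged regions called in both WT libraries, at promoters or elsewhere, 12771 (36.3%) were called in neither cKO library. These shares were fixed by the selection and are given without a test.

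Histone H3.3 is a variant of histone H3 that is deposited outside DNA replication, mainly at active genes, promoters and enhancers. H3K27ac is placed by acetyltransferases such as p300 and CBP and marks active promoters and enhancers, whereas trimethylation of lysine 36 (H3K36me3) is laid down over the bodies of transcribed genes. Promoters fall broadly into a CpG-dense kind, typical of widely expressed genes, and a CpG-poor kind that is more often used in a cell type-specific way. In macrophages, factors of the PU.1, C/EBP, AP-1 and RUNX families bind many of the latter.

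The cells were bone marrow-derived macrophages (BMDMs), grown in culture from the marrow of mice with medium conditioned by L929 cells, and the assay was CUT&RUN, which uses an antibody to bring a nuclease to its target and sequences the DNA that is cut free. WT mice had the genotype H3f3a fl/fl H3f3b fl/fl, in which both H3.3 genes are floxed but no Cre is present. H3.3cKO mice had the same floxed alleles and LysM-cre/cre, which expresses Cre from the myeloid gene Lyz2 on both chromosomes, so that Cre and the loss of H3.3 cannot be told apart in this design. All mice were of C57BL/6 background and 8 to 10 weeks old. The study describes deletion of H3f3b as sometimes complete and sometimes partial, so the cKO libraries may hold cells that still make H3.3. H3.3-HA cells carried an HA tag knocked into H3f3b and gave the map of H3.3 made from that gene. H3.3 made from H3f3a is not part of this map. Each of the 5 groups had 2 libraries. In bulk chromatin, a mark in fewer cells and less of the mark per cell cannot be told apart.

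The H3K27ac libraries held 28366343 and 16444864 tags in WT and 29988098 and 25560110 in cKO. The share of tags inside called regions was 24.1% and 21.5% in WT and 11.8% and 17.8% in cKO, and the cKO lists were shorter (35018 and 41444 regions, against 61764 and 54630). The promoter window of a protein-coding gene was nevertheless overlapped more often in cKO, at 7165 and 8648 of 21755 genes, than in WT, at 6233 and 6022. The H3K36me3 library of cKO replicate 1 stood apart, with 19.3% of its tags in regions against 46.5% to 50.2% in the other 3. Of 8 macrophage marker genes, 6 and 5 had an overlapped promoter window in the WT H3K27ac libraries and 6 and 7 in the cKO libraries, while of 20 markers of T cells, erythroid, neutrophil, stromal and endothelial cells none had one in WT. In each cKO library 1 of 4 neutrophil markers was overlapped, and in each of the 4 libraries 1 of 4 B cell markers. The part of other cells in the results was not tested. Both H3f3b and Lyz2 had an overlapped promoter in all 4 libraries, whereas H3f3a had one in both cKO libraries and neither WT library. A region call over a promoter is no check of a deletion.

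Sequences from both ends of the CpG range are shown first, because lost and kept regions differed in CpG content. All are from the mouse build mm10 (GRCm38), read in the direction of the gene from the 300 bases centred on the midpoint of the region, and each CG dinucleotide is in capitals. Stretches annotated as untranslated region are left out, which shortens some. Ermard is at chr17:15052802-15053058 and Slc28a2 at chr2:122438854-122439153. Their 300-base windows held 0 CpG. Both midpoints lay in introns, near starts 11851 bp (Ermard) and 13270 bp (Slc28a2) inside the gene.
Ermard: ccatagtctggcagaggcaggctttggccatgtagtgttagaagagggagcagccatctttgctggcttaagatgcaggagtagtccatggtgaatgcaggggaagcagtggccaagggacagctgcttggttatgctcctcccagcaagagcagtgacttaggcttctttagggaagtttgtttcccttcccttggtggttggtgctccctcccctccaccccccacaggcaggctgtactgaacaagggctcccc
Slc28a2: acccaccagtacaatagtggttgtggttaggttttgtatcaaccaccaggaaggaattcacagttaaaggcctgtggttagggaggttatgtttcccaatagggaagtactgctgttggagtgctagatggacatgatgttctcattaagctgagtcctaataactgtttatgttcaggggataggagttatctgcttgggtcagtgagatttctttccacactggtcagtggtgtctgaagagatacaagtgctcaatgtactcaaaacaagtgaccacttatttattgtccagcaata
Cntf (chr19:12766170-12766469, with 1 CpG) is the member whose gene had the largest difference towards lower H3K36me3 coverage.
Cntf: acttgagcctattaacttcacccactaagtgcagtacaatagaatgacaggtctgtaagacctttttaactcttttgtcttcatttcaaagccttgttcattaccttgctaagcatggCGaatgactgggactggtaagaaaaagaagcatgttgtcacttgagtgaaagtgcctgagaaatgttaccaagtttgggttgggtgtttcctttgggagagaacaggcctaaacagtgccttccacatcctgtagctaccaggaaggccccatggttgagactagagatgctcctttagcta
Itpr3 (chr17:27056926-27057225, with 32 CpG) and Cad (chr5:31054955-31055150, with 13 of the 28 CpG of its window) are members of high CpG density.
Itpr3: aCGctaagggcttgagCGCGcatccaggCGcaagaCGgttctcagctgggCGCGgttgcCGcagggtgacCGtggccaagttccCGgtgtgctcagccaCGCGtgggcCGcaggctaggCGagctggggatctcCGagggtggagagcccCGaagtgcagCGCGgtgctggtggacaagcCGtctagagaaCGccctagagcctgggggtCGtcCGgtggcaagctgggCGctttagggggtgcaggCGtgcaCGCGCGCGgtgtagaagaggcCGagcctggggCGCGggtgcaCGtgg
Cad: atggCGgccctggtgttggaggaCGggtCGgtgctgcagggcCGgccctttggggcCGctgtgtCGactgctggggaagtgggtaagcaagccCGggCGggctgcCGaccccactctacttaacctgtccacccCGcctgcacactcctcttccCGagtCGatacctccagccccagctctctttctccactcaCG
For contrast, only 1 gene of the macrophage identity list had a kept promoter region. It was that of the transcription factor Runx1 (chr16:92697329-92697498, with 18 of the 32 CpG of its window).
Runx1: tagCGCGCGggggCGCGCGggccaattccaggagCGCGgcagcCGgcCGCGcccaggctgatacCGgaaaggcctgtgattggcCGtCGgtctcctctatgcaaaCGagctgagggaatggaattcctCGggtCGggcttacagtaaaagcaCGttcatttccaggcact
By their 300-base windows, these members ranged from ones without a single CpG to one with as many CpG as that of Runx1.

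The lost regions were narrow. Their width ranged from 510 to 4052 bp with a median of 878 bp, and 124 of 214 (57.9%) were under 1 kb. Kept promoter regions had a median width of 2750 bp, regions called in both WT and 1 cKO library 1765 bp, and regions gained in cKO (both cKO libraries and neither WT library) 1138 bp. These widths are not independent of the selection. A lost region joins calls of the WT libraries only, and a kept region joins calls of all 4 libraries. A wide WT region is also more likely to touch a cKO call, which excludes it from the members. Within the lost regions, WT replicate 1 covered a median of 760 bp and WT replicate 2 a median of 651 bp. Slco2b1, encoding an organic anion transporter, had the widest (chr7:99705297-99709348, 4052 bp, in an intron), with 3265 bp called in WT 1 and 2694 bp in WT 2. The region of Gpr85, an orphan G protein-coupled receptor, was 3412 bp wide and had 3412 and 3122 bp called. At Parp16, which encodes an ADP-ribosyltransferase of the endoplasmic reticulum, the libraries were unequal, with 678 bp in WT 1 and 3082 bp in WT 2. The others of the 8 widest were at Specc1 (2874 bp), Gpr107 (2685 bp), Psd3 (2509 bp), Cep57 (2338 bp) and Arap1 (2293 bp). At Cep57, a centrosomal protein gene, WT 1 called 2338 bp and WT 2 501 bp, so the wide members too could rest mostly on one library.

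Loss of a call did not mean that acetylation was absent from the neighbourhood. The nearest cKO region lay within 1000 bp of 60 of 214 members (28.0%), within 5000 bp of 113 (52.8%) and beyond 50000 bp of 14 (6.54%), and the median distance was 4377 bp. Of the 212 genes, 75 (35.4%) had a cKO region in the window of some TSS of the gene, while 137 (64.6%) had none at any of their annotated starts, and 11 also had a promoter region kept in all 4 libraries. The member at Marco, a macrophage scavenger receptor, was among the most isolated. It spanned chr1:120504605-120505363, 758 bp called in WT 1 and 501 bp in WT 2, and the nearest cKO regions were 210085 bp away in cKO 1 and 198524 bp in cKO 2. By contrast, the region of the acetyltransferase gene Kat2b (PCAF) was 43 bp from a cKO 2 region and 896 bp from a cKO 1 region, and that of the ceramide kinase gene Cerk was 163 and 193 bp away.

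**Figure D1:**
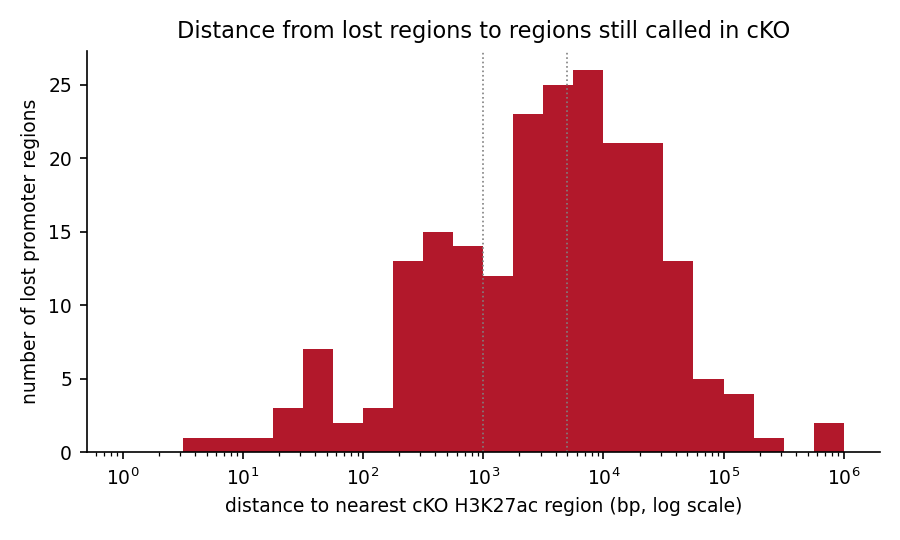
Number of lost promoter regions (vertical axis) by distance in bp to the nearest H3K27ac region of either cKO library (horizontal axis, log scale, n = 214). The dotted lines mark 1000 and 5000 bp, within which 60 and 113 members fall.

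Some lost regions lay close to an edge of the selection. The members at Tcf7l2 and Dnmbp had midpoints at -995 and -990 bp from the TSS and lay just inside, and lost regions at Gm28305 and Gm33543, at -1001 and -1007 bp, lay just outside. Downstream, Kif3c (100 bp) and Gpr107 (98 bp) were inside and Enpp1 (107 bp) and Edc4 (109 bp) outside. For the overlap criterion, Zfp759 and Clcc1 were members although a cKO region ended 4 and 7 bp away, and Usp31 and Sapcd2 were not because cKO regions covered 501 bp of each.

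Within the promoter window, which itself reaches 1000 bp upstream and only 100 bp downstream, the lost regions were spread more widely than the kept and gained ones, which lay nearer the TSS. The median midpoint was at -439 bp, against -198 bp for kept and -148 bp for gained promoter regions, and 101 of 214 (47.2%, Wilson 95% interval 40.6 to 53.9) lay more than 500 bp upstream, against 344 of 1411 kept regions (24.4%, 22.2 to 26.7). The region held its own TSS in 116 of 214 members (54.2%) and in 1389 of 1411 kept regions (98.4%). These positions follow in part from width, since a wide region near a promoter is likely to reach the TSS. All intervals here cover counting error only, since regions of the same libraries are not independent replicates. By annotation, 114 midpoints (53.3%) lay outside protein-coding transcripts, 71 (33.2%) in introns, 19 (8.88%) in untranslated regions and 10 (4.67%) in coding exons.

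**Figure D2:**
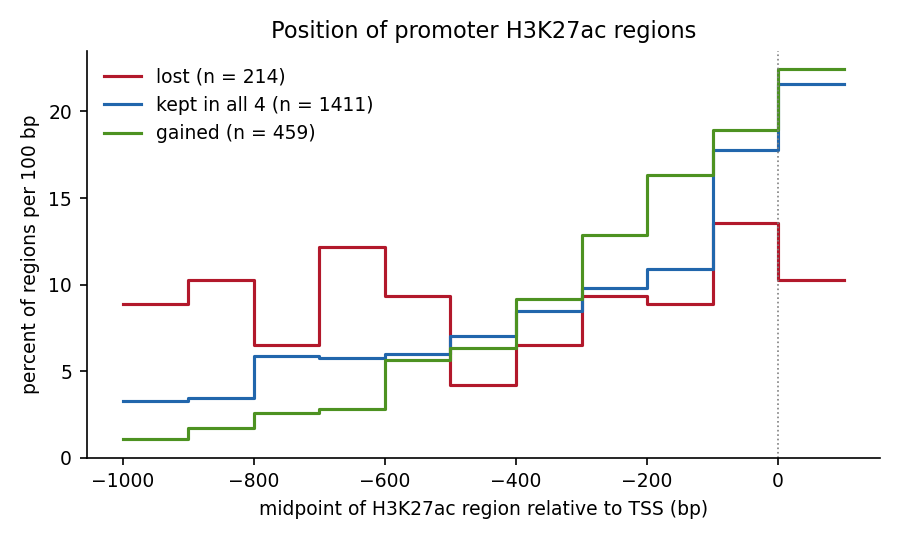
Percent of promoter regions per 100 bp (vertical axis) by the position of the region's midpoint relative to the TSS in bp (horizontal axis, upstream negative) for lost, kept and gained regions. Kept and gained regions peak at the TSS, while the lost regions are spread over the window with a median of -439 bp.

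Some of the members lay at starts inside the gene. In 54 of 214 (25.2%, 19.9 to 31.5) the TSS lay more than 1000 bp inside the first annotated start of the gene, against 169 of 1411 kept (12%, 10.4 to 13.8) and 38 of 459 gained regions (8.28%, 6.09 to 11.2). Examples are Dock2, a Rac activator of leukocyte migration, where the lost region lay at -243 bp from a start that is 95413 bp inside the gene. At Psd3, an Arf6 exchange factor, the start lay 84530 bp inside, and at Pkp4, a plakophilin, it lay 68899 bp inside. Sh3kbp1 and Klhl33 had 2 members each at different starts. Since such starts lie within a longer gene, a region there may mark an intronic element as well as a promoter, and the lists do not separate these. A start inside the gene can also be annotated as a principal one by APPRIS, as at Rab7. Over all members, 148 of 214 (69.2%) lay at a principal start, against 1050 of 1411 kept regions (74.4%).

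CpG content, which the selection had not used, was lower in the lost than in the kept regions. In the 300 bases at the midpoint, GC of at least 50% and an observed over expected CpG ratio of at least 0.6 (called CpG-rich here) were met by 39 of 214 members (18.2%, 13.6 to 23.9) and by 711 of 1411 kept regions (50.4%, 47.8 to 53.0). Regions lost from 1 cKO library lay between, at 126 of 298 (42.3%, 36.8 to 48.0), and gained regions at the other end, at 308 of 459 (67.1%, 62.7 to 71.2). The median ratio was 0.299 in lost, 0.656 in kept and 0.759 in gained regions. A ratio under 0.2 was found in 73 members (34.1%) and in 147 kept regions (10.4%), and 9 members had no CpG in their window.

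**Figure D3:**
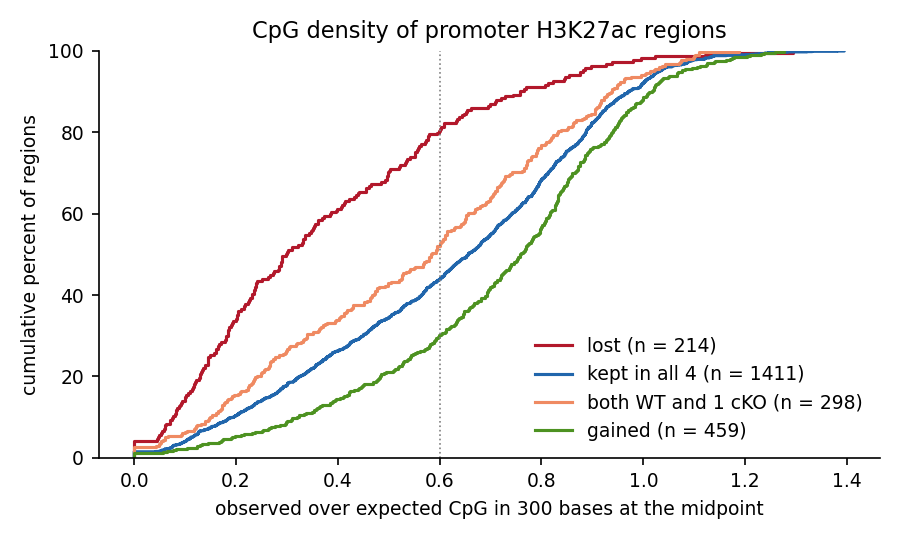
Cumulative percent of promoter regions (vertical axis) by the ratio of observed to expected CpG in the 300 bases at the midpoint (horizontal axis) for lost, kept, gained and partly lost regions. The curve of the lost regions lies to the left of the others, with a median of 0.299 against 0.656 for kept regions, and the dotted line is at 0.6.

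The contrast was present among regions that held their TSS and at the start site itself, and was not seen among regions that did not hold it, which were 98 of the 214 members but only 22 of the 1411 kept regions. Among regions that held their TSS, 29 of 116 members (25%, 18 to 33.6) and 709 of 1389 kept regions (51.0%, 48.4 to 53.7) were CpG-rich, whereas among those that did not hold it the shares were 10 of 98 (10.2%, 5.64 to 17.8) and 2 of 22 (9.09%, 2.53 to 27.8). Measured at the start site itself, from 250 bases before to 50 after it, 89 of 214 members (41.6%, 35.2 to 48.3) and 967 of 1411 kept regions (68.5%, 66.1 to 70.9) were CpG-rich. Among regions under 1 kb the shares were 29 of 124 members (23.4%, 16.8 to 31.6) and 13 of 28 kept regions (46.4%, 29.5 to 64.2), whose intervals overlap. None of the 54 members at internal starts was CpG-rich (upper limit 6.64%), against 42 of 169 kept regions at such starts (24.9%, 18.9 to 31.9).

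The GC box and an ETS motif were also rarer in the members. The search read both strands of the 300 bases, and a match is a run of letters, not a bound site. The GC box GGGCGG was present in 37 members (17.3%, 12.8 to 22.9), in 41.2% of kept regions (38.7 to 43.8) and in 40.0% of all 3879 promoter regions. The ETS letters CCGGAA of widely expressed promoters were in 17 members (7.94%, 5.02 to 12.4), 22.3% of kept (20.2 to 24.6) and 19.9% of all. Both motifs contain a CpG. The TATA letters TATAAA were in 35 members (16.4%, 12 to 21.9), 8.29% of kept (6.96 to 9.85) and 9.38% of all, and the AP-1 letters TGANTCA in 25 members (11.7%, 8.04 to 16.7), 6.66% of kept (5.47 to 8.08) and 5.93% of all, where the intervals of members and kept regions just overlap. RUNX letters TGTGGT were in 19.6% of members (14.9 to 25.5), 13.9% of kept (12.2 to 15.8) and 14.1% of all, again with overlapping intervals. Among regions that were not CpG-rich, GGGCGG was still rarer in members, at 15 of 175 (8.57%) against 120 of 700 kept regions (17.1%). CCGGAA was also still rarer there, at 4.57% against 10.6%. The contrasts of the motifs more frequent in members were smaller there, with TATAAA in 33 of 175 members (18.9%) and 101 of 700 kept regions (14.4%). TGANTCA was in 13.1% and 10.0%, and TGTGGT in 18.9% and 18.4%. The intervals of members and kept regions also overlapped for the letters GAGGAA, a core that PU.1 can bind (30.4% and 28.0%), TTGCNNAA of C/EBP (13.1% and 10.2%), CCAAT (29.9% and 30.3%) and GAAANNGAA of interferon-responsive promoters (9.81% and 7.87%). CACGTG, bound by MITF and TFEB, was in 3.27% of members (1.59 to 6.60) and 6.02% of kept regions (4.90 to 7.39), which overlap as well.

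The H3.3-HA map was not used to choose the members. Its libraries held 6951296 and 5365319 tags, fewer than any H3K27ac or H3K36me3 library. A region without an H3.3-HA call may therefore still hold H3.3. An H3.3-HA region of replicate 1 overlapped 80 of 214 members (37.4%, 31.2 to 44.0), one of replicate 2 overlapped 90 (42.1%, 35.6 to 48.8) and both did so at 56 (26.2%, 20.7 to 32.4), while 100 (46.7%) overlapped neither. Kept promoter regions were overlapped in 48.2%, 64.2% and 42.5% (40.0 to 45.1 for both), and gained regions in 21.6%, 41.8% and 14.6% (11.7 to 18.1 for both). The order of lost and kept regions depended on how the overlap was counted. In a window of 500 bp at the midpoint, which takes width out of the comparison, both H3.3-HA libraries overlapped 51 members (23.8%, 18.6 to 30.0) and 263 kept regions (18.6%, 16.7 to 20.8). When at least 50% of the region had to be covered in both libraries the shares were 13.6% and 5.95%, but such a cut-off is easier to meet for narrow regions. Among regions under 1 kb, both libraries overlapped 18.5% of members (12.7 to 26.3) and 14.3% of kept regions (5.7 to 31.5). With regions of at least 1 kb only, the shares were 47.1% and 54.7%. Gained regions remained lowest in the 500 bp window, at 40 of 459 (8.71%, 6.46 to 11.6). The lost regions therefore overlapped H3.3-HA less often than kept ones as whole regions and not less often per 500 bp.

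**Figure D4:**
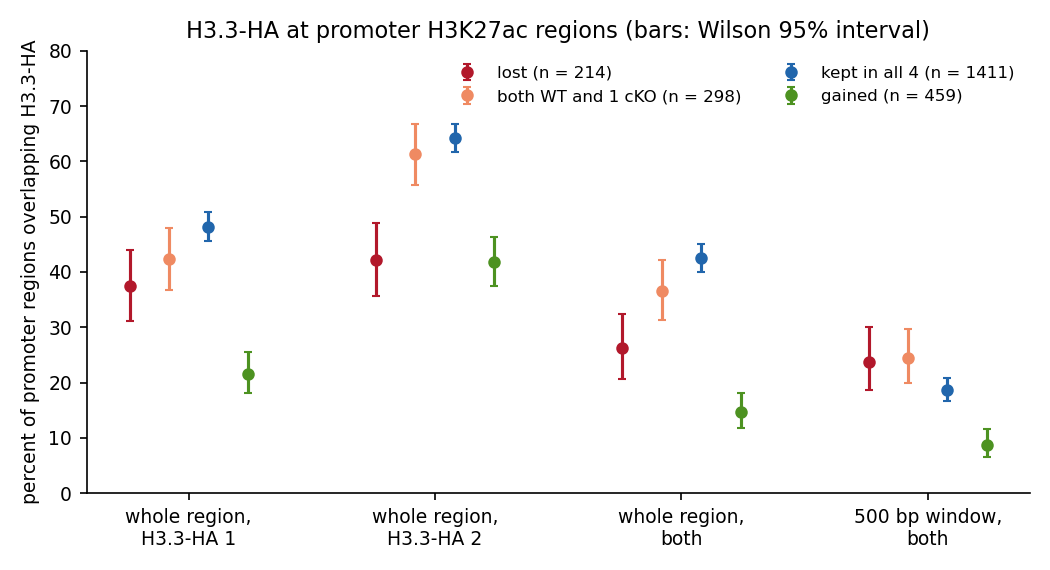
Percent of promoter regions overlapped by H3.3-HA regions (vertical axis) for lost, partly lost, kept and gained regions, counted over the whole region in each H3.3-HA library and in both, and in a 500 bp window at the midpoint. Points are shares and bars Wilson 95% intervals. The lost regions lie below the kept ones for whole regions (26.2% against 42.5% in both libraries) and not in the 500 bp window (23.8% against 18.6%).

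Among members in both H3.3-HA libraries, the library that covered less of the region covered a median of 51.6% of it. At Agpat3, an acyltransferase of phospholipid synthesis, the whole 797 bp region lay in H3.3-HA regions of both libraries, and at Slco2b1 868 and 1590 bp did. At Parp16 the covered length was 923 and 2254 bp and at Psd3 1265 and 2215 bp. Sqle, Trim13, Dock2, Slc41a2, Arap1 and Cep57 had no H3.3-HA region in either library. Members in 1 library only (58 in all) included Marco with 715 bp and Cntf with 564 bp in replicate 1 and Fabp5 with 551 bp in replicate 2.

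H3K36me3 over the gene body gave an independent view of the genes. The percent of the body inside H3K36me3 regions, averaged over the 212 genes, was 28.9 and 30.8 in WT 1 and 2 and 15.4 and 29.6 in cKO 1 and 2, a difference of -7.37 percentage points (29.9 ± 1.34 against 22.5 ± 10.0, SD, n = 2 each; exact two-sided permutation test, p = 0.667, where 0.333 is the smallest that 2 against 2 libraries allow). Most of it came from cKO replicate 1, since cKO replicate 2 lay between the WT libraries, and without cKO replicate 1 the difference was -0.298. Genes with a kept promoter region gave -7.90 points, and all 11156 protein-coding genes with an H3K36me3 region -7.68. These sets are not strictly alike. Genes without any H3K36me3 region count as zero coverage in the lost set (36 of 212) and the kept set (108 of 1397). They are left out of the 11156, so the levels and differences of the sets compare only roughly. The mean coverage of the lost genes was lower than that of genes with a kept region in all 4 libraries (42.4, 44.1, 26.1 and 44.5% in the same order). Mean differences between genotypes were similar over all libraries but less so with a library left out. Without cKO replicate 1 they were -0.298 points for lost and 1.3 for kept genes, and without cKO replicate 2 -14.5 and -17.1.

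Gene by gene, 83 of the 176 genes with any H3K36me3 region (47.2%, 39.9 to 54.5) had lower coverage in both cKO than in both WT libraries, 7 (3.98%, 1.94 to 7.98) had higher coverage in both, and 86 overlapped. A further 36 had no H3K36me3 region in any library. Over all protein-coding genes 38.4% were lower and 8.11% higher by the same rule, and among genes with a kept promoter region 39.3% (36.6 to 41.9) and 8.38% (6.99 to 10.0). The share of lower genes among the members was thus above the background by less than 10 percentage points, with an interval that began just above it. Gained genes gave 45.5% (40.7 to 50.4), so the share was not particular to lost regions. Leaving out H3K36me3 cKO replicate 1 gave the same 83 of 176, beside 38.9% of all genes. Leaving out cKO replicate 2 gave 141 of 170, beside 79.9% of all genes. At these genes the count was thus set by cKO replicate 2, not by agreement of the cKO libraries. With a gap of at least 5 percentage points the count was 46 (26.1%, against 19.9% of all genes). Without that gap, the count was 63 of 120 (52.5%) where no cKO H3K27ac region lay within 1000 bp and 20 of 56 (35.7%) where one did. This split uses the H3K27ac calls behind the selection, and the difference was not tested.

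The largest differences towards lower coverage included genes of metabolism and transport, 7 of which are described. Cntf, the gene of ciliary neurotrophic factor, had 100% of its 1.97 kb body covered in both WT libraries and 25.4 and 39.0% in cKO, but this body overlaps the gene Zfp91, so that the H3K36me3 regions may belong to either. Coverage of Trim13, a ubiquitin ligase of the endoplasmic reticulum, was 67.5 and 69.5% in WT and 0 and 27.6% in cKO. Fabp5, a fatty acid-binding protein, had 68.7 and 59.5% in WT and 0 and 21.5% in cKO. The groups did not overlap at these genes, and the cKO libraries were unequal at each.

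The glycogen phosphorylase gene Pygl had 69.3 and 71.1% in WT and 11.7 and 45.4% in cKO. Sqle, which encodes squalene epoxidase of cholesterol synthesis, had 85.4 and 90.5% in WT and 30.3 and 70.5% in cKO. For the magnesium transporter gene Slc41a2 the values were 72.3 and 74.4% in WT and 27.9 and 46.1% in cKO. Cad, the enzyme that opens de novo pyrimidine synthesis, differed from the others in that both cKO libraries were close together, at 11.1 and 13.3% against 53.8 and 40.5% in WT. In all 7 the higher cKO value was below the lower WT value, as their choice required.

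In the opposite direction, Slc28a2, a nucleoside transporter, had 14.3 and 19.6% of its body covered in WT and 37.4 and 57.6% in cKO. Ltc4s, which makes leukotriene C4, was at 0 in both WT libraries and at 20.8 and 23.3% in cKO over a gene of 2.16 kb. Spp1 (osteopontin) had 70.4 and 78.2% in WT and 92.4 and 100% in cKO. Serpinb6b, a serine protease inhibitor, was at 0 in both WT libraries and at 11.9 and 26.8% in cKO. The H3K27ac regions lost at these genes lay at -743, -184, -915 and -86 bp from the start. Slc28a2 and Serpinb6b still had a cKO H3K27ac region in the window of one of their starts. The nearest cKO region was 91 bp from the lost region at Serpinb6b, and the start with the lost region at Slc28a2 lay 13270 bp inside the gene. Ltc4s and Spp1 had no cKO region in such a window.

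**Figure D5:**
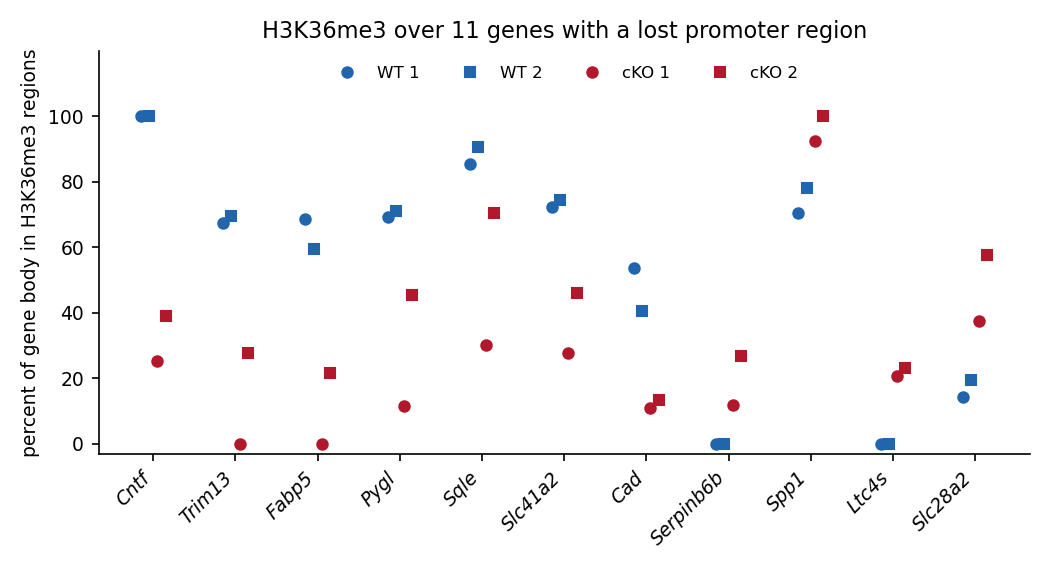
Percent of the gene body inside H3K36me3 regions (vertical axis) in the 2 WT (blue) and 2 cKO (red) libraries for 7 genes with large differences towards lower and 4 towards higher coverage among genes with a lost promoter region. Circles are replicate 1 and squares replicate 2. The groups do not overlap at any gene, as the choice of genes required, and cKO 1 lies below cKO 2 at all 11.

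Functional gene lists held few members. Of 2068 genes with a promoter region in both WT libraries, 212 (10.3%) had a lost region. By list, the sterol and fatty acid synthesis genes had 2 lost of 8 with a WT region (Sqle and Agpat3), nucleotide synthesis 2 of 6 (Cad and Gmpr), the writers, erasers and readers of acetylation 2 of 8 (Kat2b among them), macrophage identity 1 of 3 (Marco), DNA damage response and apoptosis 1 of 8 (Casp9), phagocytosis and adhesion 1 of 8 (Dock2) and lysosome and lipid handling 1 of 4 (Fabp5). No member was in the lists of interferon-stimulated genes (8 with a WT region), cytokines, chemokines and their receptors (6), cell cycle and DNA replication (5) or H3.3 genes, chaperones and lysine 36 methylation (7). With at most 8 genes a list, these counts describe the members and cannot be told apart from the background.

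The member at Gmpr, GMP reductase, lay at -336 bp from its start (chr13:45506818-45507398), and H3K36me3 over its body, which overlaps Atxn1, was 11.3 and 18.2% in WT and 0 and 1.08% in cKO. That of Casp9, the initiator caspase of the mitochondrial pathway, lay at -683 bp (chr4:141792616-141793241), with coverage of 70.7 and 66.3% in WT and 55.2 and 83.1% in cKO. Casp9 and Kat2b (38.1 and 41.6% against 21.7 and 46.9%) thus overlapped between genotypes. Coverage of Dock2 was 51.4 and 54.3% in WT and 31.4 and 49.4% in cKO, and that of Agpat3 17.1 and 17.8% and 3.14 and 13.9%. Marco had no H3K36me3 region in any library.

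Few of the genes were on the study's lists of transcripts changed in cKO BMDMs on day 7 of culture, which were made from RNA libraries outside this series and are used here by symbol only. The copies used here hold 248 distinct symbols of lower and 356 of higher transcripts, of which 228 and 341 matched a protein-coding gene, and entries without a symbol were left out. On the list of lower transcripts were 5 of 212 genes (2.36%, 1.01 to 5.40), namely Fabp5, Dyrk1b, Nuak1, Cerk and Ermard. On the list of higher transcripts were also 5, Pkp4, Plk3, Tmem40, Serpinb6b and Itpr3. Among genes with a kept promoter region the shares were 1.57% lower (1.04 to 2.37) and 1.22% higher (0.761 to 1.94), and among all protein-coding genes 1.05% and 1.57%. The intervals of lost and kept genes overlapped in both directions.

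Of the 5 on the lower list, H3K36me3 coverage was lower in both cKO libraries at 4, beside 47.2% of all genes with a lost region and 38.4% of all genes. Nuak1, a kinase related to AMPK, had 27.2 and 24.7% in WT and 1.44 and 0% in cKO, and the nearest cKO H3K27ac regions were 38904 and 91224 bp from its lost region. Dyrk1b, a kinase of quiescent cells, had 61.0 and 62.3% in WT and 36.4 and 56.2% in cKO. Ermard had 25.4 and 32.3% against 6.35 and 20.5%, over a body that overlaps Gm3448 and Tcte3. Cerk was the exception, at 75.5 and 81.1% in WT and 76.7 and 91.1% in cKO, and its lost region lay beside one still called in cKO. On the higher list, Plk3 (61.3 and 84.3% against 61.4 and 85.3%) and Itpr3, an inositol trisphosphate receptor (26.9 and 36.6% against 21.7 and 44.1%), overlapped between genotypes, Pkp4 was lower in both cKO libraries (20.6 and 21.8% against 12.3 and 18.9%), Serpinb6b was higher and Tmem40 had no region.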

How the data were processed

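Per the file headers and the study's methods, the authors aligned paired-end CUT&RUN reads to mm10 with Bowtie2 and called regions with HOMER for each library on its own against IgG (peak size 500 bp, minimum distance 1000 bp, 4 fold over IgG, Poisson p of 1e-04 over IgG and over the surrounding 10000 bp). Each deposited list holds region coordinates, and its score column, as deposited by the authors, is constant, so no signal, fold or p-value per region was used and the study's differential test, which needs read counts, could not be run. A region missed by the caller can therefore differ little in signal. Controls differed between genotypes. The 5 IgG samples enter only as that background.

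Lists were merged, classified and placed on the GENCODE M21 basic annotation with Python 3.11.15 and numpy 2.4.6, and sequences were read with pysam 0.24.0 from GRCm38.p6. The code was tested on simulated lists. H3K36me3 coverage was the percent of a gene from first to last base inside regions. Two-sided exact permutation tests compared 2 with 2 libraries, and shares carry Wilson 95% intervals. Members are not replicates, so none was tested over regions. The labels call the 2 libraries of a group biological replicates without saying whether they came from separate mice, so p-values measure the spread between these libraries only.

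The members, gene lists and tests were chosen with earlier results of these data known. Genes were named by rule: the 8 widest members, the 8 largest differences towards lower and 4 towards higher H3K36me3 coverage among those with non-overlapping groups, every member on a functional gene list, up to 12 members on each RNA list, and the regions nearest each edge of the selection. Some items that the rule names are not reported here. No sequence is shown for 1 further kept region, whose window was annotated as untranslated region.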

Additional observations from a re-analysis of the deposited data

How the results depend on the processing

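The number of members depended strongly on the rule. It was 104 with regions of at least 1 kb only, 94 with lists of equal length (the widest 35018 regions of each), 403 with midpoints up to 1 kb on either side and 372 with the start sites of all annotated genes, and it ranged from 265 to 498 when 1 H3K27ac library was left out (414 and 469 without WT 1 and 2, 498 without cKO 2). Under the same settings in that order, the genes with lower H3K36me3 numbered 33, 36 and 174 for the first 3, and 46 with a gap of at least 5 points. They ranged from 83 to 181 when a library was left out (153 and 172 without H3K27ac WT 1 and 2, 181 without H3K27ac cKO 2), and were 141 of 170 without H3K36me3 cKO 2, where 79.9% of all genes were lower. The share of members in both H3.3-HA libraries was 47.1% with regions of at least 1 kb only, 36.2% with lists of equal length and 13.6% with at least 50% of the region covered, and ranged from 20.8 to 28.7% with an H3K27ac library left out. With H3.3-HA replicate 1 or 2 left out, the share in the remaining H3.3-HA library was 42.1 or 37.4%. The CpG-rich share was 24.2% when regions up to 1 kb apart were merged, 25% with regions of at least 1 kb, 11% with all start sites, 41.6% at the start site and 10.3% with a ratio of at least 0.75, and ranged from 13.4 to 19.9% with a library left out. In every one of these settings it stayed below the share of kept regions. A cKO region lay within 1 kb of 0% of members after merging at 1 kb, as that merging requires, of 5.77% with regions of at least 1 kb, of 19.1% with lists of equal length and of 19.6 to 34.1% with a library left out, and within 5 kb of 52.8%. The share on the lower RNA list ranged from 2.23 to 2.81% with a library left out and was 1.35% with all start sites, against 1.21% of genes with a kept region. The mean H3K36me3 difference at genes with a lost region kept its sign throughout, from -14.5 to -0.298 with a library left out. The cause of these shifts was not tested unless stated.

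With the replicate number as a block, the H3K36me3 difference was -7.37 points (-13.5 for number 1 and -1.24 for number 2; exact sign-flip p = 0.5, the smallest that 2 pairs allow). The numbers were not taken to pair the libraries, since the WT and cKO deviations correlated at 0.0749 over 11156 genes. Depth per region is unknown, so a lost call near the threshold cannot be separated from a large loss.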
